A study of Homo sapiens with 20 samples.

Results

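Ruxolitinib-persistent HEL cells were set against the parental line they came from. HEL is a human erythroleukaemia cell line that carries the JAK2 V617F allele, so every library described here carries it. The members were chosen by their labels and not by any measured value: 2 libraries labelled RuxP and 2 labelled parental, 4 of the 20 RNA-seq libraries of the series. RuxP cells had been kept in long culture with the JAK inhibitor ruxolitinib, and the parental cells are labelled with no inhibitor. A further pair from the same count table, labelled FedP, came from long culture with fedratinib, another JAK2 inhibitor, and was used for the spread of the measurements and as the closest population to compare with. The sources used here do not give the dose, the length of the culture, whether drug was present at harvest, or whether a persistent population is 1 clone or a mixture. Nor do they say whether the 2 libraries of a group came from separate cultures, so a p-value here speaks of the spread between libraries, which may be technical.

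JAK2 is the kinase that sits under the receptors for erythropoietin and several other cytokines. The V617F change makes it signal without cytokine, through the STAT transcription factors, the RAS to ERK kinase cascade and the PI3K pathway. Ruxolitinib occupies the ATP pocket of JAK1 and JAK2 and is used against myeloproliferative neoplasms. Persistence is the name given to cells that keep growing under an inhibitor after an adaptation period, and it has been described without second mutations in JAK2. HEL cells are blasts with mixed erythroid and megakaryocytic features, which is the background for the lineage genes described here.

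Of 15924 genes tested with edgeR, 1026 were called at an adjusted p under 0.05, which is 6.44% of the tested genes. In RuxP cells 681 of them rose (4.28%) and 345 fell (2.17%). At least 4-fold changes were fitted for 203 of the genes that rose and for 81 of those that fell. In all 1026 the 2 RuxP libraries lay on one side of the 2 parental libraries, which the calls themselves favour. The median log2 fold change over all tested genes was -0.041. Of the 1026 genes, 502 were also called in the same direction in FedP against parental cells, where 611 genes rose and 444 fell. The 2 comparisons share their parental libraries. Several features led the comparison. Genes of mitosis and DNA replication rose in RuxP cells, many platelet genes and the globin genes fell, and a set of mast cell and myeloid genes rose. A few ERK-dependent transcription factor genes rose, while most listed genes of the JAK2 and ERK pathways were not called in this fit.

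Levels are given as CPM, counts relative to the TMM-scaled library size, for replicates 1 and 2 in turn, and SE is the standard error of the fitted log2 fold change. Totals ran from 51799814 to 59204428 counts in the 4 RuxP and parental libraries, and 3 counts, the limit that a count of 0 allows, were 0.0513 to 0.0604 CPM. RuxP 1 held 2741 genes with 1 to 20 counts and RuxP 2 held 6172, while parental 1 held 5752 and parental 2 held 4664. The replicates of a group differed along with transcript GC content. With genes sorted into 5 equal bins by GC share, from the lowest to the highest bin the median log2 difference of replicate 1 minus replicate 2 ran from 0.21 to -0.41 in RuxP, from -0.03 to 0.05 in FedP and from -0.50 to 0.86 in parental cells. More than 2-fold apart between replicates were 1.63% of 10459 well expressed genes in RuxP, 0.00956% in FedP and 10% in parental cells. The labels give the same flow cell and lane for all 6 libraries, so no lane batch separates them.

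RuxP 1 and parental 2 each held fewer genes with low counts than the other library of their group. A repeat of the comparison without both was therefore planned. The low-count filter was run again for that fit, so its genes were not the same 15924, and the spread was taken from the FedP pair alone. Its count of calls lends no weight to a single call. RuxP against parental cells also carried a GC trend, with median log2 fold changes of 0.19, 0.13, -0.01, -0.23 and -0.48 from the lowest to the highest bin. With the trends on GC content and length removed per library, 1011 of the 1026 genes were called in the same direction, and the whole count became 1800 higher and 1581 lower, a more even split than 681 and 345. Leaving out single libraries gave 170 called genes without RuxP 1, 517 without RuxP 2, 1550 without parental 1, 4157 without parental 2, 582 without FedP 1 and 575 without FedP 2. The part of library quality in single small changes was not tested.

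**Figure D1:**
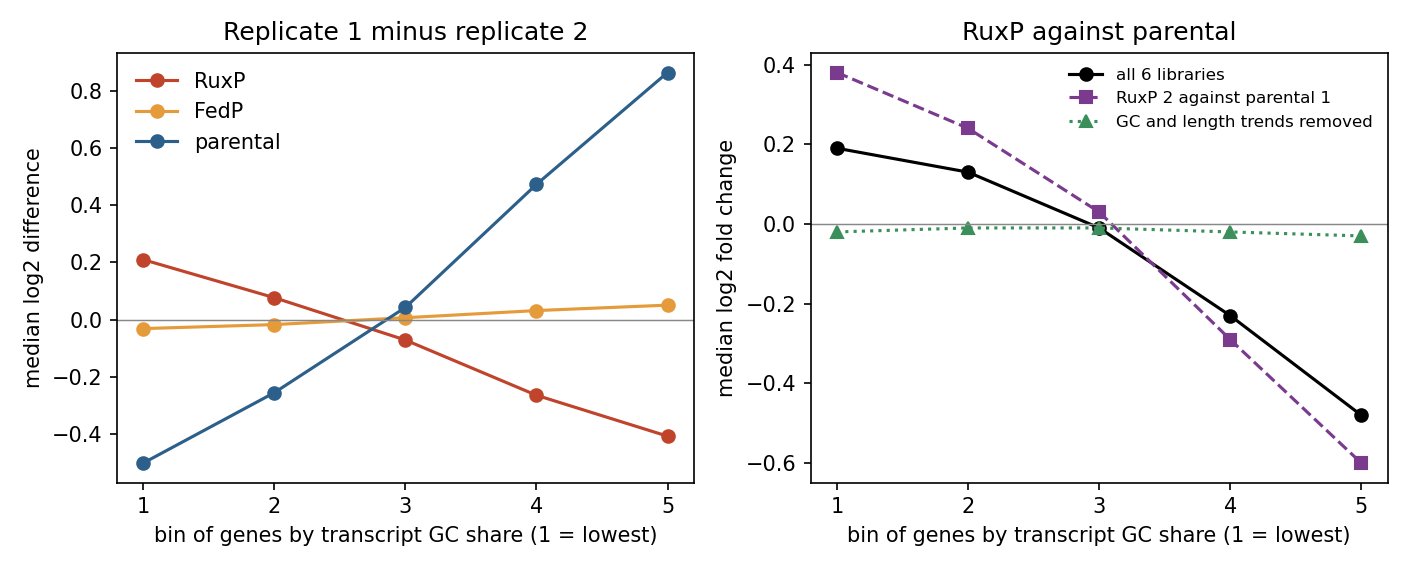
Median log2 differences (y axes) for genes sorted into 5 equal bins by the GC share of their transcripts (x axes, 1 is the lowest). On the left each line is replicate 1 minus replicate 2 of 1 group, and on the right each line is the RuxP over parental fold change under 1 treatment of the data. The parental line climbs from -0.50 to 0.86, the RuxP line falls from 0.21 to -0.41, and the FedP line stays near 0.

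The label was checked on 15 genes that mark HEL cells as erythroid and megakaryocytic. All 15 were detected and tested in the table, with a median log2 fold change of -1.05, and in 11 of them both RuxP libraries lay below both parental libraries. The transcription factor TAL1 had 366 and 300.3 CPM in the RuxP libraries, against 399.7 and 463 CPM in the parental libraries, and the platelet integrin chain ITGA2B had 762 and 1004 CPM in the RuxP libraries, against 2309 and 1335 CPM in the parental libraries, with adjusted p-values of 0.23 and 0.085. In RuxP cells 5 of the 15 fell, ITGB3, HBE1, HBG1 and HBG2 among them, and 2 rose, CD33 among them. The fallers numbered 1 without RuxP 1, 2 without RuxP 2, 11 without parental 2, 3 without FedP 1 and 3 without FedP 2. The summed level of the 15 was 2437 and 2859 CPM in RuxP, against 6221 and 4110 CPM in parental cells. In bulk RNA, fewer cells of a kind and less RNA per cell cannot be told apart. Of 14 tested lymphoid markers IL7R was called and of 13 tested epithelial and stromal markers KRT8, both higher. These are shares of 7.14% and 7.69% beside the 6.44% of all tested genes. CD3D, CD3E and CD3G were among those too low to test. The lymphoid list summed to 597.4 and 513.8 CPM in RuxP, against 292.5 and 398.2 CPM in parental cells, and the epithelial and stromal list to 584.8 and 729.2 CPM, against 1065 and 641.0 CPM. Their part in the results was not tested.

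The JAK2 gene itself did not pass the test. JAK2 had 467 and 368 CPM in the RuxP libraries, against 388 and 670.1 CPM in the parental libraries (log2 fold change -0.34 ± 0.28 SE, adjusted p = 0.49). The groups overlapped, since parental 2 was the highest library and parental 1 lay between the RuxP libraries. JAK2 was called as lower with GC and length trends removed (log2 fold change -0.52, adjusted p = 0.026). Without RuxP 1 and parental 2 together its log2 fold change was only -0.07. STAT5A, the main STAT protein downstream of mutant JAK2, had 354 and 425 CPM in the RuxP libraries, against 664 and 484 CPM in the parental libraries (log2 fold change -0.56 ± 0.20 SE, adjusted p = 0.16), and STAT5B had 159 and 183 CPM in the RuxP libraries, against 239 and 177 CPM in the parental libraries (log2 fold change -0.28 ± 0.19 SE, adjusted p = 0.41). Both are named after their values were seen. PIM1, a survival kinase induced by STAT5, had 511 and 609.7 CPM in the RuxP libraries, against 479.9 and 310.4 CPM in the parental libraries (log2 fold change 0.50 ± 0.23 SE, adjusted p = 0.25). Both RuxP libraries lay above both parental ones, and PIM1 was called with GC and length trends removed (log2 fold change 0.74, adjusted p = 0.0016). CISH, a feedback inhibitor that STAT5 induces, had 36.3 and 53.7 CPM in the RuxP libraries, against 39.6 and 18.6 CPM in the parental libraries (log2 fold change 0.63 ± 0.37 SE, adjusted p = 0.35). RuxP 1 lay below parental 1, and CISH too was called without those trends (log2 fold change 0.94, adjusted p = 0.013). MYC, the growth-promoting transcription factor, had 322 and 463 CPM in the RuxP libraries, against 720.1 and 419.9 CPM in the parental libraries (log2 fold change -0.54 ± 0.29 SE, adjusted p = 0.32).

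Of 33 tested JAK, STAT and cytokine receptor genes, 3 rose and 2 fell, beside 4.28% and 2.17% of all tested genes, with a median log2 fold change of -0.17. IL4R, the interleukin 4 receptor, had 36.8 and 37 CPM in the RuxP libraries, against 15 and 10.4 CPM in the parental libraries (log2 fold change 1.54 ± 0.21 SE, adjusted p = 0.013). IL6R, the receptor for interleukin 6, had 7.28 and 4.24 CPM in the RuxP libraries, against 1.01 and 1.41 CPM in the parental libraries (log2 fold change 2.25 ± 0.38 SE, adjusted p = 0.025). IL6ST, which encodes gp130, the shared signalling chain of the interleukin 6 family, had 65.7 and 56.1 CPM in the RuxP libraries, against 138 and 197 CPM in the parental libraries (log2 fold change -1.46 ± 0.21 SE, adjusted p = 0.016). The 2 chains of the interleukin 6 receptor thus moved in opposite directions. EPOR, the erythropoietin receptor, had 13.5 and 19.8 CPM in the RuxP libraries, against 55.9 and 31.3 CPM in the parental libraries and was not called (log2 fold change -1.38 ± 0.32 SE, adjusted p = 0.06). The 3 rises numbered 0 without RuxP 1, 1 without RuxP 2 and 6 without parental 2. The 2 falls numbered 0 without RuxP 1, 0 without RuxP 2, 9 without parental 2, 1 without FedP 1 and 1 without FedP 2, while 6 higher and 11 lower were called with GC and length trends removed. Of the named genes the calls of IL4R and IL6ST were lost without RuxP 1 or RuxP 2 and the call of IL6R was lost without RuxP 1 or parental 1.

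STAT5 target and feedback genes gave 4 rises and no fall among 19 tested, beside 4.28% and 2.17% of all tested genes, with a median log2 fold change of 0.50. CCND2, the cyclin D2 gene, had 318 and 323 CPM in the RuxP libraries, against 145 and 148 CPM in the parental libraries (log2 fold change 1.13 ± 0.13 SE, adjusted p = 0.0084), and CCND1, the cyclin D1 gene, had 3.02 and 2.96 CPM in the RuxP libraries, against 0.557 and 0.349 CPM in the parental libraries (log2 fold change 2.71 ± 0.32 SE, adjusted p = 0.0078). EPAS1, a hypoxia-inducible transcription factor gene, had 13.1 and 16.3 CPM in the RuxP libraries, against 2.61 and 1.59 CPM in the parental libraries (log2 fold change 2.80 ± 0.29 SE, adjusted p = 0.0055). In each of these the lower RuxP library exceeded the higher parental library. FedP against parental cells gave 8 rises and no fall in this list, with a median of 1.06. No member was called between RuxP and FedP cells. The SOCS1 and SOCS3 genes, feedback inhibitors of JAK kinases, had higher values that did not pass the test: SOCS3 had 20.4 and 21.9 CPM in the RuxP libraries, against 10.5 and 4.9 CPM in the parental libraries (log2 fold change 1.46 ± 0.35 SE, adjusted p = 0.063), and SOCS1 had 4.12 and 3.06 CPM in the RuxP libraries, against 1.67 and 0.853 CPM in the parental libraries (log2 fold change 1.50 ± 0.36 SE, adjusted p = 0.065). SOCS1 and SOCS3 are named after their values were seen. The count of 4 was 1 without RuxP 1, 2 without RuxP 2, 9 without parental 1 and 7 without parental 2. The call of CCND1 was lost without RuxP 1, the call of CCND2 was lost without RuxP 1 or RuxP 2 and the call of SPRED2 was lost without RuxP 1, RuxP 2, FedP 1 or FedP 2. The calls with GC and length trends removed were 9 higher and 2 lower.

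Downstream of RAS, 8 of 32 tested ERK feedback and immediate-early genes rose and none fell, beside 4.28% and 2.17% of all tested genes, with a median log2 fold change of 0.44. The 3 PEA3 ETS factors, transcription factors whose genes ERK signalling induces, were all among them. ETV4 had 13.2 and 7.58 CPM in the RuxP libraries, against 0.191 and 0.0775 CPM in the parental libraries (log2 fold change 6.22 ± 0.48 SE, adjusted p = 0.0041). ETV5 had 21.6 and 23.3 CPM in the RuxP libraries, against 4.98 and 4.57 CPM in the parental libraries (log2 fold change 2.23 ± 0.16 SE, adjusted p = 0.0038). ETV1 had 3.68 and 2.09 CPM in the RuxP libraries, against 0.209 and 0.194 CPM in the parental libraries (log2 fold change 3.83 ± 0.47 SE, adjusted p = 0.0093). For ETV4 and ETV1 the parental libraries held only a few counts above the floor, while ETV5 was well measured in all. FedP libraries had 15.1 and 13.4 CPM of ETV4 and 36.8 and 37.2 CPM of ETV5. The list median in FedP against parental cells was 0.81, and no member was called between RuxP and FedP cells. LIF, a cytokine of the interleukin 6 family, had 6.86 and 6.25 CPM in the RuxP libraries, against 0.748 and 0.543 CPM in the parental libraries (log2 fold change 3.34 ± 0.27 SE, adjusted p = 0.0044). The further calls, named after their values were seen, were ATF3, a stress-induced transcription factor gene (1.20 ± 0.20 SE), and the RAS inhibitor genes SPRED1 (1.13 ± 0.22 SE) and SPRED2 (0.89 ± 0.15 SE), beside CCND1. Without 1 library the count of 8 became 4 without RuxP 1, 5 without FedP 1 and 5 without FedP 2. The call of CCND1 was lost without RuxP 1.

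The phosphatase genes that switch ERK off were not called in the main edgeR fit of all 6 libraries. DUSP6, which removes phosphate from ERK in the cytoplasm, had 2.74 and 4.72 CPM in the RuxP libraries, against 0.661 and 2.71 CPM in the parental libraries (log2 fold change 1.15 ± 0.62 SE, adjusted p = 0.32). The lower RuxP library lay only just above the higher parental one, and without RuxP 1 and parental 2 together the log2 fold change was 2.83. DUSP1, a nuclear phosphatase of ERK, p38 and JNK, had 1.73 and 2.93 CPM in the RuxP libraries, against 7.52 and 3.91 CPM in the parental libraries (log2 fold change -1.29 ± 0.40 SE, adjusted p = 0.12). Both RuxP libraries lay below both parental ones, and DUSP1 was called as lower with GC and length trends removed (log2 fold change -1.09, adjusted p = 0.033). DUSP7, another MAP kinase phosphatase gene, had 76.6 and 127 CPM in the RuxP libraries, against 321 and 171 CPM in the parental libraries. Its log2 fold change was -1.27 ± 0.36 SE (adjusted p = 0.097). DUSP7 too was called as lower with those trends removed (log2 fold change -0.91, adjusted p = 0.0051). Among all 10 tested MAP kinase phosphatase genes edgeR called 0, with 1 higher and 2 lower at an unadjusted p under 0.05, and DESeq2 called 2 lower while limma-voom called 0. Removal of those trends gave 1 higher and 2 lower. EGR1, an immediate-early gene of ERK signalling, had 1.69 and 1.85 CPM in the RuxP libraries, against 1.46 and 2.25 CPM in the parental libraries (log2 fold change -0.07 ± 0.30 SE, adjusted p = 0.91), and RPS6KA1, the RSK1 kinase gene, had 89.3 and 115 CPM in the RuxP libraries, against 139 and 91.1 CPM in the parental libraries (log2 fold change -0.17 ± 0.24 SE, adjusted p = 0.7). Of the 8 tested genes followed for JAK2 signalling, edgeR called 0 and 1 was lower at an unadjusted p under 0.05, while DESeq2 called 1 lower, and 2 higher and 2 lower were called with GC and length trends removed (PIM1, CISH, JAK2 and DUSP1). SPRY4 had 22 and 4 counts in the RuxP libraries, against 0 and 0 in the parental libraries, too few to test. S100A8 and S100A9, myeloid alarmin genes, likewise had too few counts, with 46 counts of S100A9 in RuxP 1 and 1 in RuxP 2, against 1 and 0 in parental cells.

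Within the RAS, RAF, MEK, ERK and RSK list, 1 of 31 tested genes rose and 2 fell, 9.68% beside the 6.44% of all tested genes. SOS1, the exchange factor that loads RAS with GTP, had 289 and 243 CPM in the RuxP libraries, against 89.1 and 135 CPM in the parental libraries (log2 fold change 1.25 ± 0.23 SE, adjusted p = 0.033). RASGRP3, another RAS activator, had 34.5 and 28.7 CPM in the RuxP libraries, against 88.3 and 96.9 CPM in the parental libraries (log2 fold change -1.55 ± 0.17 SE, adjusted p = 0.0064). GAB2, the docking protein between receptors and the PI3K and RAS pathways, had 69.3 and 86.5 CPM in the RuxP libraries, against 162 and 145 CPM in the parental libraries (log2 fold change -0.98 ± 0.17 SE, adjusted p = 0.028). The RAS activators SOS1 and RASGRP3 thus changed in opposite directions, and no kinase of the cascade was called. The list's falls numbered 0 without RuxP 1, 1 without RuxP 2, 9 without parental 2, 1 without FedP 1 and 1 without FedP 2, and 1 higher and 8 lower were called with GC and length trends removed. When 1 library was dropped, the call of RASGRP3 was lost without RuxP 1, the call of SOS1 was lost without RuxP 1 or RuxP 2 and the call of GAB2 was lost without RuxP 1, RuxP 2, FedP 1 or FedP 2.

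**Figure D2:**
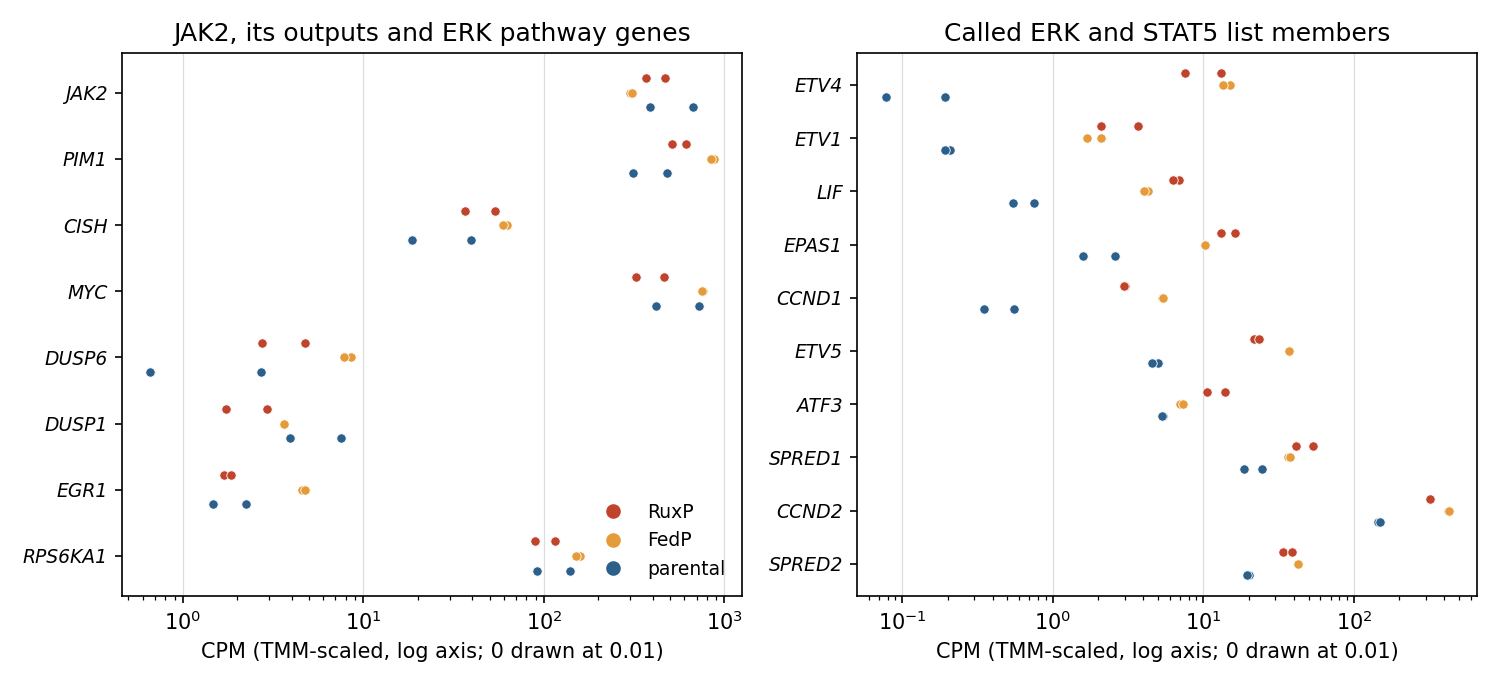
Level of JAK2, STAT5 and ERK pathway genes (left) and of called members of the ERK and STAT5 lists (right), in CPM on a log axis, with 1 point per library and the groups drawn in 3 rows per gene (RuxP, FedP, parental). Parental JAK2 spans 388 to 670.1 CPM and encloses a RuxP point, while for ETV4, ETV5 and CCND2 both RuxP points lie right of both parental points.

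Cell division genes rose together. Of 43 tested mitosis genes 37 rose in RuxP cells (86.0%) and none fell, and 31 of 43 DNA replication genes rose (72.1%) with none falling, beside the 4.28% of all tested genes. Their median log2 fold changes were 1.86 and 1.35. MKI67, which encodes the Ki-67 proliferation antigen, had 359 and 299.9 CPM in the RuxP libraries, against 53.8 and 72.9 CPM in the parental libraries (log2 fold change 2.38 ± 0.21 SE, adjusted p = 0.0044). KIF2C, a kinesin that corrects chromosome attachment, had 122 and 126 CPM in the RuxP libraries, against 29.5 and 32.1 CPM in the parental libraries (log2 fold change 2.01 ± 0.15 SE, adjusted p = 0.0039). KIF11, the kinesin that pushes spindle poles apart, had 67.2 and 59.7 CPM in the RuxP libraries, against 12.5 and 16.1 CPM in the parental libraries (log2 fold change 2.15 ± 0.19 SE, adjusted p = 0.0044). PTTG1, which encodes securin, had 28.2 and 23.6 CPM in the RuxP libraries, against 6.33 and 6.22 CPM in the parental libraries (log2 fold change 2.04 ± 0.17 SE, adjusted p = 0.0044). In each, the lower RuxP library was more than 3-fold above the higher parental library.

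Genes of the replication machinery behaved alike. MCM4, a subunit of the helicase that opens DNA, had 235 and 242 CPM in the RuxP libraries, against 63.6 and 61.4 CPM in the parental libraries (log2 fold change 1.93 ± 0.14 SE, adjusted p = 0.0039). CDC45 and GINS1, which join that helicase to activate it, rose by 2.07 ± 0.18 SE and 2.05 ± 0.18 SE on the log2 scale. CDC6, the loader that places the helicase on origins, had 36.9 and 32.8 CPM in the RuxP libraries, against 8.19 and 8.82 CPM in the parental libraries (log2 fold change 2.04 ± 0.17 SE, adjusted p = 0.0044). TYMS, thymidylate synthase, named for the sequence given here, had 27.2 and 32.3 CPM in the RuxP libraries, against 8.47 and 8.31 CPM in the parental libraries (log2 fold change 1.82 ± 0.17 SE, adjusted p = 0.0048). The replicates of each of these genes lay closer together than the groups, and of KIF2C, PTTG1, MKI67, KIF11, MCM4, CDC45, CDC6 and GINS1 no call among them was lost with any 1 of the 6 libraries left out.

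Counts of called members shrank when a RuxP library was left out: the mitosis count was 15 without RuxP 1 and 24 without RuxP 2, and the replication count was 11 without RuxP 1 and 19 without RuxP 2. Without RuxP 1 and parental 2 together they were 43 and 41, and with GC and length trends removed 41 and 40. Taken library by library, the median log2 ratio to the parental mean over the mitosis list was 1.90 in RuxP 1 and 1.80 in RuxP 2, and over the replication list 1.30 and 1.39. The replication-dependent histone genes, whose messages also accumulate in S phase but lack poly(A) tails, did not follow: 0 of 38 tested rose and 1 fell, with 0 higher at an unadjusted p under 0.05 in edgeR and 0 higher in DESeq2 or limma-voom. The histone falls numbered 0 without RuxP 1, 4 without parental 2, 0 without FedP 1 and 0 without FedP 2, and 7 with GC and length trends removed. Whether the library kit captured such RNA is not given in the sources used here.

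A CHR element (TTTGAA) in the promoter is known to bind the DREAM and MuvB complexes, which time the expression of mitosis genes, and an E2F site (TTTCCCGC) plays that role for many replication genes. The promoter windows, 250 bases before to 50 after the RefSeq start on GRCh38.p14, were read for 11876 of the 15924 tested genes. TTTGAA stood on either strand in 27 of 36 mitosis promoters (75.0%), in 20.2% of the promoters of genes that rose, in 8.2% of those that fell and in 10.2% of all. TTTCCCGC stood in 10 of 37 replication promoters (27.0%), in 4.59% of genes that rose, 1.56% of those that fell and 2.41% of all. Both motifs were chosen with the data known. They do not overlap each other in letters, and a match is a description of these windows only. Shown are the promoters of the called member with the smallest p that holds each motif, 5′ to 3′ from RefSeq, with the matches on either strand in capitals: MKI67 (chr10:128126374-128126673, minus strand) for TTTGAA and TYMS (chr18:657403-657702, plus strand) for TTTCCCGC.
MKI67: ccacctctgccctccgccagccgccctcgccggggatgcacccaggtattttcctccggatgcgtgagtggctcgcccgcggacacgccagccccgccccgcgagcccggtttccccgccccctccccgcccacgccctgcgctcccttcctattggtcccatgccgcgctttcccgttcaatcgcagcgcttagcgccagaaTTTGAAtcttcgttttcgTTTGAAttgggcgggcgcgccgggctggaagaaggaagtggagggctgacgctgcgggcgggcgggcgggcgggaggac
TYMS: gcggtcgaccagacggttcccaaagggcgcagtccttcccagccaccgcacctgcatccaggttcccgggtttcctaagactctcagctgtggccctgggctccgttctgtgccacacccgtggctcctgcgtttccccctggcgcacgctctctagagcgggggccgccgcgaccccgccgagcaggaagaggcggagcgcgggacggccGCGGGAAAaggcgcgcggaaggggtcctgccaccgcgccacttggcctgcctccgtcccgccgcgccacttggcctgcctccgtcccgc

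Calls among genes for making ribosomes depended on the setting. Of 36 ribosome biogenesis genes and 77 cytosolic ribosomal protein genes edgeR called 0 each, with medians of 0.23 and -0.34. At an unadjusted p under 0.05, 7 biogenesis genes were higher and 1 lower, and 16 ribosomal protein genes were lower. DESeq2 called 5 biogenesis genes higher and 9 ribosomal protein genes lower, and limma-voom called 0 of either. The GC and length trends once removed, 12 biogenesis genes were called higher and 0 lower, and 20 ribosomal protein genes lower and 0 higher.

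The test against FedP cells showed that the division genes also set RuxP apart from the other persistent population. In RuxP against FedP cells 222 genes were called (1.39%), of which 185 were higher in RuxP (1.16%) and 37 lower (0.232%). Among them were 29 of the 43 mitosis genes and 24 of the 43 replication genes, all higher in RuxP, with list medians of 1.61 and 1.24 beside -0.045 for all tested genes. MKI67 had 359 and 299.9 CPM in RuxP, 53.4 and 55.5 CPM in FedP, and 53.8 and 72.9 CPM in parental cells, a RuxP minus FedP log2 fold change of 2.60 ± 0.21 SE, adjusted p = 0.018. KIF11 had 67.2 and 59.7 CPM in RuxP, 12.6 and 12.7 CPM in FedP, and 12.5 and 16.1 CPM in parental cells, a difference of 2.33 ± 0.19 SE, adjusted p = 0.018. CDC45 had 19.1 and 20.4 CPM in RuxP, 3.73 and 4.17 CPM in FedP, and 4.65 and 4.75 CPM in parental cells, a difference of 2.32 ± 0.18 SE, adjusted p = 0.018. MCM4 differed by 1.77 ± 0.14 SE, adjusted p = 0.018. For MKI67, KIF11, CDC45 and MCM4 the FedP libraries sat near parental levels and the RuxP libraries well above both. PTTG1 and KIF2C had higher values in FedP than in parental cells. PTTG1 had 28.2 and 23.6 CPM in RuxP, 12.1 and 12 CPM in FedP, and 6.33 and 6.22 CPM in parental cells, a FedP over parental difference of 0.94 ± 0.17 SE, adjusted p = 0.031. KIF2C had 122 and 126 CPM in RuxP, 44.2 and 45.6 CPM in FedP, and 29.5 and 32.1 CPM in parental cells, a difference of 0.54 ± 0.14 SE, adjusted p = 0.08.

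That comparison is fragile in its count. With edgeR it called 0 genes without RuxP 1, without RuxP 2, without FedP 1 and without FedP 2, where 1877, 5616, 2118 and 2350 genes had an unadjusted p under 0.05. It called 5672 without parental 1 and 5332 without parental 2, while DESeq2 called 3680 and limma-voom 445. The comparisons of RuxP and of FedP with parental cells share their parental libraries. In FedP against parental cells the mitosis and replication lists had medians of -0.05 and 0.15.

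**Figure D3:**
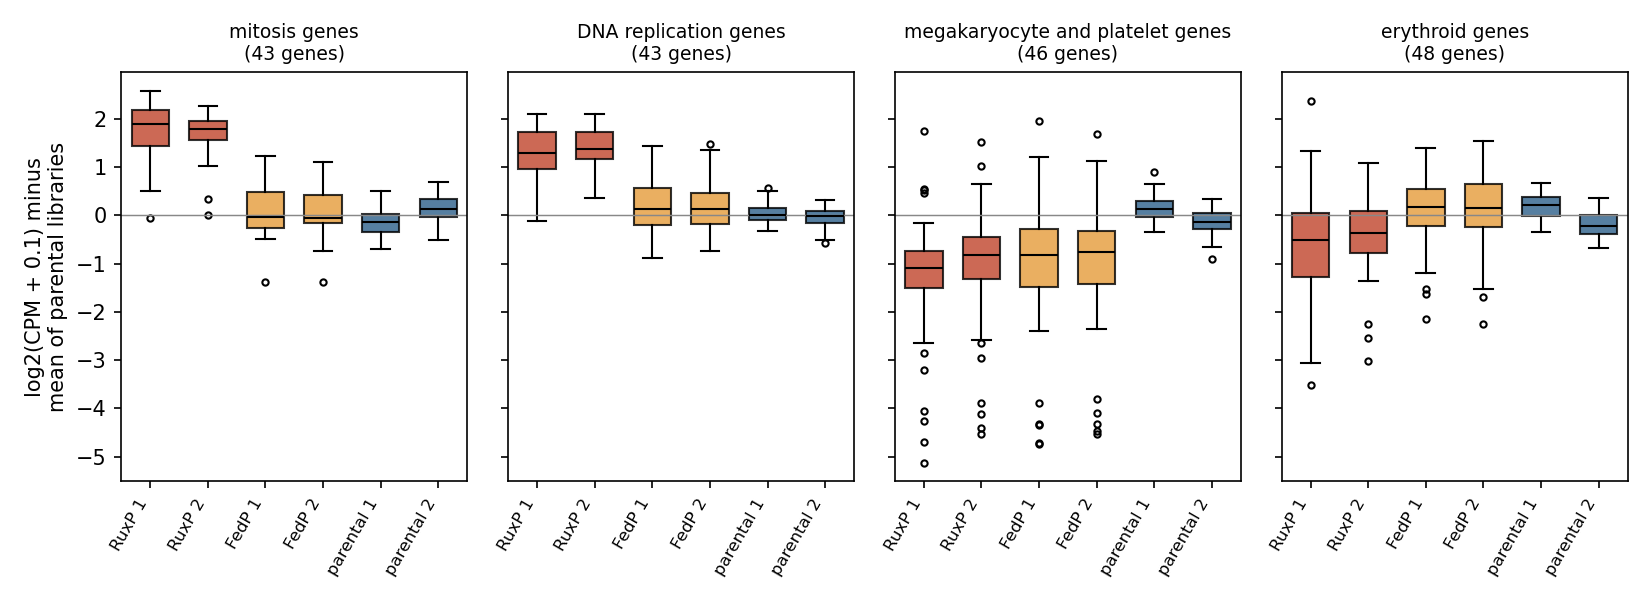
Level of list members in each library, as log2(CPM + 0.1) minus the mean of the parental libraries (y axis), with boxes from the lower to the upper quartile, the median as a line, whiskers at 1.5 times the interquartile range and circles beyond. The mitosis medians are 1.90 and 1.80 in RuxP 1 and 2 and -0.04 and -0.05 in FedP 1 and 2, while the megakaryocyte and platelet medians are below 0 in both persistent groups.

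Genes of the megakaryocyte and platelet lineage fell. Of 46 tested members 22 were lower in RuxP cells and 1, CD9, was higher, beside 2.17% and 4.28% of all tested genes, with a median log2 fold change of -1.05. ITGB3, the beta chain of the platelet fibrinogen receptor, fell to 35.8 and 37.3 CPM in RuxP, against 232 and 218 CPM in parental cells (log2 fold change -2.62 ± 0.15 SE, adjusted p = 0.003). PF4 and PPBP, chemokines stored in platelet granules, fell to a few per cent of the parental level: PF4 had 1.57 and 1.78 CPM in the RuxP libraries, against 54.1 and 34.5 CPM in the parental libraries (log2 fold change -4.72 ± 0.30 SE, adjusted p = 0.003), and PPBP had 0.201 and 0.171 CPM in the RuxP libraries, against 4.58 and 7.05 CPM in the parental libraries (log2 fold change -4.95 ± 0.43 SE, adjusted p = 0.0044). GP5, a subunit of the von Willebrand factor receptor complex, had 7.64 and 8.88 CPM in the RuxP libraries, against 68.5 and 45.7 CPM in the parental libraries (log2 fold change -2.79 ± 0.24 SE, adjusted p = 0.0044). THBS1, the granule protein thrombospondin 1, had 5.43 and 2.86 CPM in the RuxP libraries, against 58.3 and 44.5 CPM in the parental libraries (log2 fold change -3.64 ± 0.36 SE, adjusted p = 0.0051). No RuxP library reached a parental one in any of these genes, and their parental levels differed by less than 2-fold between replicates.

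Among regulators of the lineage FLI1 was called, and GATA1 and NFE2 were not. FLI1, an ETS factor of megakaryocytes named after its values were seen, had 590.1 and 653 CPM in the RuxP libraries, against 1118 and 958 CPM in the parental libraries (log2 fold change -0.74 ± 0.15 SE, adjusted p = 0.041). GATA1, the master factor of both lineages, had 91.6 and 119 CPM in the RuxP libraries, against 286 and 144 CPM in the parental libraries (log2 fold change -1.03 ± 0.33 SE, adjusted p = 0.13). NFE2, which drives platelet release, had 332 and 405 CPM in the RuxP libraries, against 671 and 515 CPM in the parental libraries (log2 fold change -0.69 ± 0.19 SE, adjusted p = 0.089). Leaving out 1 library changed the count of 22 to 5 without RuxP 1, 8 without RuxP 2, 13 without FedP 1 and 12 without FedP 2. The call of GP5 was lost without RuxP 1. It was 41 without RuxP 1 and parental 2 together and 32 with GC and length trends removed. No member was called between RuxP and FedP cells, where edgeR gave a median of -0.21, and PF4 had 1.54 and 1.77 CPM in the FedP libraries.

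GATA factors bind AGATAA, and this motif stood in 4 of 32 platelet list promoters (12.5%), in 5.87% of promoters of genes that rose, 7.42% of those that fell and 5.73% of all. PPBP is shown for it (chr4:73988141-73988440, minus strand), with both matches in capitals.
PPBP: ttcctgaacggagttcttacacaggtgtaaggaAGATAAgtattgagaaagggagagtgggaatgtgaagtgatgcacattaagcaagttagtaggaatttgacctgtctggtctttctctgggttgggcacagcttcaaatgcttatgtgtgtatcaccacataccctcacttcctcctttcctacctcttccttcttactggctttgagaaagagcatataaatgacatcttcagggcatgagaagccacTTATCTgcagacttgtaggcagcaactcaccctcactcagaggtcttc

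Erythroid genes divided. Of 48 tested members 8 fell and 1 rose, beside 2.17% and 4.28% of all tested genes, with a median of -0.47. HBE1, embryonic epsilon globin, had 17.7 and 24.9 CPM in the RuxP libraries, against 264 and 156 CPM in the parental libraries (log2 fold change -3.30 ± 0.32 SE, adjusted p = 0.0051). ALAD, an enzyme of haem synthesis, had 70.2 and 74 CPM in the RuxP libraries, against 206 and 177 CPM in the parental libraries (log2 fold change -1.41 ± 0.15 SE, adjusted p = 0.0068). HBA1 and HBA2, alpha globin genes with near-identical sequences whose reads may have been split between them, had log2 fold changes of -2.68 ± 0.40 SE and -2.94 ± 0.46 SE, and the near-identical gamma globins HBG1 and HBG2 had -1.21 ± 0.23 SE and -1.19 ± 0.25 SE. All of these globin genes were lower in both RuxP libraries than in either parental library, and parental 2 was well under parental 1. The count of 8 was 0 without RuxP 1, 1 without RuxP 2, 24 without parental 2 and 5 without FedP 2. The call of HBE1 was lost without RuxP 1 and the calls of ALAD, HBA1 and HBA2 were lost without RuxP 1 or RuxP 2. It was 18 with GC and length trends removed. KLF1, the factor that activates adult globin genes, had 44.3 and 68.2 CPM in the RuxP libraries, against 119 and 54.9 CPM in the parental libraries and was not called (log2 fold change -0.63 ± 0.39 SE, adjusted p = 0.37). Against FedP cells 2 members were lower in RuxP, 1 of them HBG1 with 27 and 28.1 CPM in RuxP, 80.8 and 83.1 CPM in FedP, and 77.2 and 49.9 CPM in parental cells (-1.57 ± 0.23 SE, adjusted p = 0.041).

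Mast cell and basophil genes formed a rising group that was listed after the data had been seen, so its count is a description. Of 21 tested members of 27, 10 rose and 1, FCER1G, fell, beside 4.28% and 2.17% of all tested genes. Several of them also stand in the myeloid, progenitor and receptor lists. CPA3, the carboxypeptidase of mast cell granules, had 41.5 and 50.6 CPM in the RuxP libraries, against 2.98 and 3.47 CPM in the parental libraries (log2 fold change 3.84 ± 0.21 SE, adjusted p = 0.003). HPGDS, the haematopoietic prostaglandin D synthase, had 15.6 and 14 CPM in the RuxP libraries, against 1.22 and 1.43 CPM in the parental libraries (log2 fold change 3.48 ± 0.22 SE, adjusted p = 0.003). KIT, the receptor for stem cell factor, had 148 and 141 CPM in the RuxP libraries, against 20.4 and 24.8 CPM in the parental libraries (log2 fold change 2.68 ± 0.17 SE, adjusted p = 0.003). In CPA3, HPGDS and KIT the replicates agreed closely and the lower RuxP library was more than 5-fold above the higher parental one.

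Further mast cell genes were more mixed. IL1RL1, the interleukin 33 receptor, had 3.84 and 4.59 CPM in the RuxP libraries, against 0.104 and 0.0969 CPM in the parental libraries (log2 fold change 5.36 ± 0.42 SE, adjusted p = 0.0041), a fold measured against a handful of parental counts. ALOX5, the lipoxygenase that starts leukotriene synthesis, had 5.55 and 6.69 CPM in the RuxP libraries, against 0.331 and 0.368 CPM in the parental libraries (log2 fold change 4.13 ± 0.23 SE, adjusted p = 0.003). CTSG, the protease cathepsin G, had 58 and 107 counts in the RuxP libraries, against 0 and 0 in the parental libraries, and was at least 27.2-fold higher at a floor of 3 counts per parental library. This bound takes each count as a separate fragment and would be lower if read mates were counted separately. The defining mast cell protease genes TPSAB1 and TPSB2 were not called, with adjusted p-values of 0.59 and 0.27, and CMA1 had 0 counts in both RuxP libraries. The summed level of the list was 2033 and 2355 CPM in RuxP, 3472 and 3394 CPM in FedP and 1859 and 1321 CPM in parental cells. Without RuxP 1 the count of 10 became 6, and of CPA3, HPGDS, KIT and ALOX5 no call among them was lost with any 1 of the 6 libraries left out.

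CPA3 and HPGDS also differed from FedP cells. CPA3 had 10 and 10.9 CPM in the FedP libraries, a RuxP minus FedP log2 fold change of 2.14 ± 0.19 SE, adjusted p = 0.018. HPGDS had 3.82 and 4.58 CPM in the FedP libraries, a difference of 1.82 ± 0.21 SE, adjusted p = 0.027. ALOX5 went the other way, with 15.8 and 15 CPM in the FedP libraries and a difference of -1.33 ± 0.19 SE, adjusted p = 0.04. FedP libraries thus stood between RuxP and parental cells for CPA3 and HPGDS and above both for ALOX5.

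Monocyte and granulocyte genes gave 7 rises and 2 falls among 37 tested, beside 4.28% and 2.17% of all tested genes, with a median of 0.69. CD33, a sialic acid receptor of early myeloid cells, had 91.4 and 93.2 CPM in the RuxP libraries, against 36.4 and 27.4 CPM in the parental libraries (log2 fold change 1.53 ± 0.18 SE, adjusted p = 0.0086). VCAN, the matrix proteoglycan versican that monocytes make, fell to 2.03 and 1.33 CPM in RuxP, against 25.7 and 31.4 CPM in parental cells (log2 fold change -4.09 ± 0.28 SE, adjusted p = 0.0034). MPO, ELANE and PRTN3, the neutrophil granule genes, were too low to test. The 7 rises became 2 without RuxP 1 and 4 without RuxP 2. The call of CD33 was lost without RuxP 1 or RuxP 2. The falls numbered 4 without parental 1, and the calls with GC and length trends removed were 15 higher and 5 lower. SPI1, which encodes the myeloid factor PU.1 and is named after its values were seen, had 80 and 124 CPM in the RuxP libraries, against 104 and 45.5 CPM in the parental libraries and was not called (log2 fold change 0.45 ± 0.40 SE, adjusted p = 0.53).

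Stem and progenitor genes rose in 7 and fell in 2 of 25 tested, beside 4.28% and 2.17% of all tested genes, with a median of 0.07. MECOM, which encodes the leukaemia-linked factor EVI1, had 58.2 and 56.7 CPM in the RuxP libraries, against 22.5 and 22.7 CPM in the parental libraries (log2 fold change 1.34 ± 0.14 SE, adjusted p = 0.0064). ERG, an ETS factor of stem cells, had 17.3 and 13.5 CPM in the RuxP libraries, against 3.64 and 5.19 CPM in the parental libraries (log2 fold change 1.80 ± 0.25 SE, adjusted p = 0.013), and it differed from FedP cells, at 4.55 and 4.37 CPM in the FedP libraries, by 1.79 ± 0.25 SE, adjusted p = 0.036. MEIS1, a HOX cofactor, fell to 36.6 and 34.7 CPM in RuxP, against 73.6 and 80 CPM in parental cells (log2 fold change -1.11 ± 0.15 SE, adjusted p = 0.013). CD34, the classical progenitor surface marker named after its values were seen, also fell, to 0.724 and 0.736 CPM in RuxP, against 3.25 and 3.6 CPM in parental cells (log2 fold change -2.23 ± 0.38 SE, adjusted p = 0.026). The rises were 1 without RuxP 1, 3 without RuxP 2, 4 without FedP 1 and 4 without FedP 2. The calls of MECOM and ERG were lost without RuxP 1 and the call of MEIS1 was lost without RuxP 1, RuxP 2, FedP 1 or FedP 2. The falls numbered 0 without RuxP 1, 0 without RuxP 2, 7 without parental 2, 0 without FedP 1 and 0 without FedP 2, and 5 with GC and length trends removed.

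**Figure D4:**
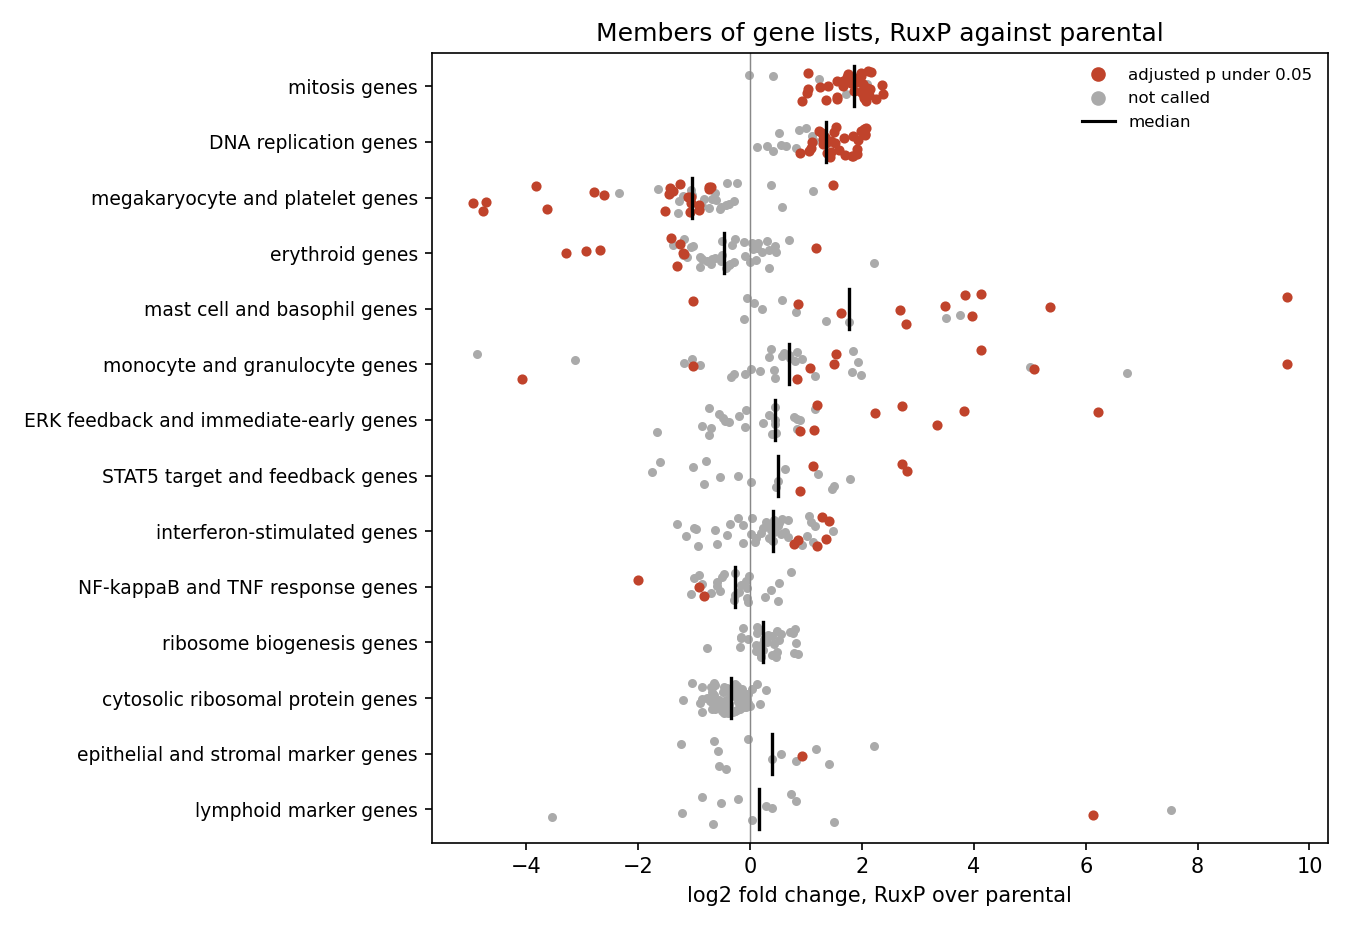
Log2 fold change of RuxP over parental cells (x axis) for the tested members of 14 gene lists (rows), with called members in red, others in grey and the list median as a black line. Mitosis and DNA replication members lie almost wholly right of 0, platelet members mostly left of 0, and the cytosolic ribosomal protein genes hold no red point. The fitted fold change of CTSG, at the far right, depends on a prior count because its parental counts are 0.

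Among the 15 largest rises with a mean of at least 4 CPM, 3 encode transcription factors. FEV (ENSG00000163497, chr2:218981087-218985657), an ETS factor known from serotonin neurons, had 17.3 and 26.7 CPM in the RuxP libraries, against 0.278 and 0.0775 CPM in the parental libraries (log2 fold change 6.90 ± 0.50 SE, adjusted p = 0.0037). THRB, a thyroid hormone receptor, had 23.6 and 27.3 CPM in the RuxP libraries, against 0.766 and 2.05 CPM in the parental libraries (log2 fold change 4.18 ± 0.44 SE, adjusted p = 0.0064). ETV4 is given with the ERK genes. For FEV the parental libraries were close to the floor, and THRB differed more than 2-fold between its parental libraries. In the FedP libraries FEV had 38.7 and 40.5 CPM and THRB had 30.9 and 32 CPM. Of the 15 rises only CD24, CPA3 and HPGDS were called between RuxP and FedP cells.

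CD24 (ENSG00000272398, chr6:106969831-106975627), a small glycoprotein anchored in the membrane, had 38.8 and 38.3 CPM in the RuxP libraries, against 0.383 and 0.388 CPM in the parental libraries (log2 fold change 6.64 ± 0.20 SE, adjusted p = 0.00056), with nearly equal replicates in both groups. CD24 has pseudogene copies, so its counts depend on how shared reads were assigned. SIGLEC10, a sialic acid receptor, had 11.4 and 15.6 CPM in the RuxP libraries, against 1.25 and 0.775 CPM in the parental libraries (log2 fold change 3.73 ± 0.30 SE, adjusted p = 0.0044). FAM83A (ENSG00000147689, chr8:123178960-123210079) had 16.1 and 20.7 CPM in the RuxP libraries, against 0.418 and 0 CPM in the parental libraries (log2 fold change 6.40 ± 0.85 SE, adjusted p = 0.012). BCL2 (ENSG00000171791, chr18:63123346-63320128), the gene of the anti-apoptotic founder of its family, had 15.9 and 13.2 CPM in the RuxP libraries, against 0.818 and 1.18 CPM in the parental libraries (log2 fold change 3.86 ± 0.27 SE, adjusted p = 0.0034). It was the only 1 of 13 tested BCL2 family genes called, 7.69% beside the 6.44% of all tested genes, and 2 higher and 2 lower were called with GC and length trends removed. BCL2L1, which encodes BCL-XL and is named after its values were seen, had 143 and 179 CPM in the RuxP libraries, against 324 and 229 CPM in the parental libraries and was not called (log2 fold change -0.78 ± 0.22 SE, adjusted p = 0.09).

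Further large rises were in ADAMTS14, a procollagen protease (5.20 ± 0.32 SE), APOL4, an apolipoprotein L (4.57 ± 0.22 SE), LITAF, an endosomal membrane protein (3.97 ± 0.37 SE), FAM49A, a RAC1-binding protein (3.21 ± 0.20 SE), and ARMH1 (3.16 ± 0.40 SE). In all 15 the lower RuxP library was above the higher parental library, which the rule for naming them required. In fits that each dropped 1 library, the call of THRB was lost without RuxP 1 and the calls of FAM83A and ARMH1 were lost without RuxP 1 or RuxP 2.

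Of the 15 largest falls, 3 were the platelet genes TREML1, PF4 and THBS1. TREML1, a receptor of platelet granules, had 0.161 and 0.513 CPM in the RuxP libraries, against 12.1 and 6.74 CPM in the parental libraries (log2 fold change -4.77 ± 0.58 SE, adjusted p = 0.0091). ARHGEF15 (ENSG00000198844, chr17:8310241-8322516), an activator of small GTPases, had 0.0201 and 0.359 CPM in the RuxP libraries, against 13.6 and 9.94 CPM in the parental libraries (log2 fold change -5.88 ± 0.80 SE, adjusted p = 0.013). CAMK2D (ENSG00000145349, chr4:113451032-113761927), a calcium-dependent kinase, had 0.201 and 0.103 CPM in the RuxP libraries, against 8.02 and 8.35 CPM in the parental libraries (log2 fold change -5.76 ± 0.45 SE, adjusted p = 0.0041). HDAC9 (ENSG00000048052, chr7:18086949-19002416), a class IIa histone deacetylase, had 0.241 and 0.205 CPM in the RuxP libraries, against 8.93 and 9.86 CPM in the parental libraries (log2 fold change -5.39 ± 0.42 SE, adjusted p = 0.0041). ARHGEF15 was at 1 count in RuxP 1, and the RuxP libraries held few counts of ARHGEF15, CAMK2D and HDAC9. In the FedP libraries ARHGEF15 had 0.188 and 0.132 CPM, CAMK2D 0.0469 and 0.0958 CPM and HDAC9 0.0703 and 0.168 CPM. None of the 15 falls was called between RuxP and FedP cells.

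Others of the 15 were as follows. MAPK4, an atypical MAP kinase, had 0.845 and 0.77 CPM in the RuxP libraries, against 25.4 and 18 CPM in the parental libraries (log2 fold change -4.75 ± 0.33 SE, adjusted p = 0.0037). DAPP1, an adaptor of PI3K signalling, had 1.05 and 0.856 CPM in the RuxP libraries, against 14.9 and 20 CPM in the parental libraries (log2 fold change -4.20 ± 0.27 SE, adjusted p = 0.003). IRAK2, a kinase below the interleukin 1 and Toll-like receptors, had 0.925 and 0.667 CPM in the RuxP libraries, against 8.93 and 8.8 CPM in the parental libraries (log2 fold change -3.48 ± 0.30 SE, adjusted p = 0.0044). The rest were PHEX, an endopeptidase linked to phosphate balance (-4.63 ± 0.44 SE), EYA4, a transcription coactivator (-4.63 ± 0.33 SE), CD40LG, the CD40 ligand (-4.06 ± 0.69 SE), OR51E1, an olfactory receptor (-3.99 ± 0.33 SE), and MAL, a membrane raft protein (-3.57 ± 0.21 SE). Among the 15 falls the call of TREML1 was lost without RuxP 1.

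**Figure D5:**
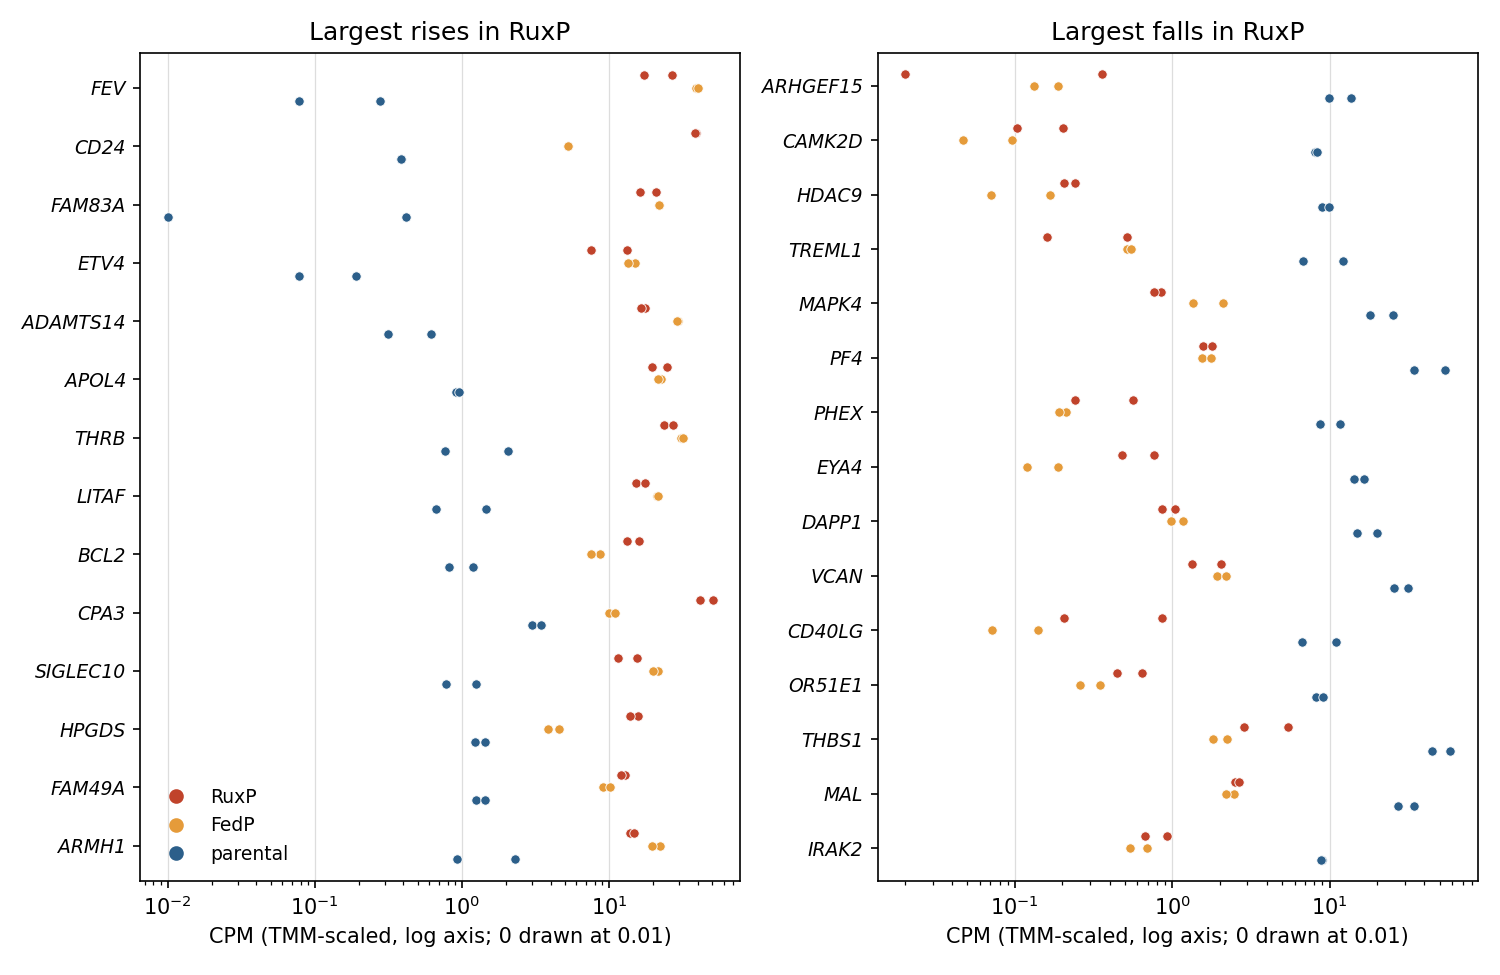
Level of genes among the 15 largest rises (left) and of the 15 genes with the largest falls (right) in RuxP over parental cells, in CPM on a log axis, with 1 point per library and the rows of each gene in the order RuxP, FedP, parental. The rule that chose the genes required the RuxP and parental points not to overlap. For CD24, CPA3 and HPGDS the RuxP points lie right of the FedP points, and of the genes drawn these were called between RuxP and FedP cells.

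Of 46 tested interferon-stimulated genes 6 rose and none fell, beside 4.28% and 2.17% of all tested genes, with a median of 0.40. CMPK2, a mitochondrial nucleotide kinase induced by interferon, had 37.6 and 31.6 CPM in the RuxP libraries, against 13.5 and 14.9 CPM in the parental libraries (log2 fold change 1.29 ± 0.17 SE, adjusted p = 0.012). OAS3, which senses double-stranded RNA, had 37.8 and 46.9 CPM in the RuxP libraries, against 17.9 and 15.2 CPM in the parental libraries (log2 fold change 1.35 ± 0.18 SE, adjusted p = 0.013). XAF1 and GBP1, a pro-apoptotic protein and a guanylate-binding protein, rose by 1.19 ± 0.23 SE and 1.41 ± 0.28 SE. The count of 6 was 0 without RuxP 1, 1 without RuxP 2, 13 without parental 2, 2 without FedP 1 and 2 without FedP 2. The call of CMPK2 was lost without RuxP 1, the call of OAS3 was lost without RuxP 1 or RuxP 2 and the calls of XAF1 and GBP1 were lost without RuxP 1, RuxP 2, FedP 1 or FedP 2. The calls with GC and length trends removed were 16 higher and 4 lower.

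The interferon response element, a pair of TTTC runs spaced by 2 bases, stood in 25 of 37 promoters of the list (67.6%), in 3.12% of promoters of all genes that rose, 1.56% of those that fell and 3.06% of all. OAS3 is shown for it (chr12:112938224-112938523, plus strand), with both matches in capitals. The STAT motif TTCNNNGAA stood in 6.24% of promoters of genes that rose, 5.47% of those that fell and 6.53% of all, and the ETS motif CCGGAAGT in 5.32%, 3.91% and 8.05%.
OAS3: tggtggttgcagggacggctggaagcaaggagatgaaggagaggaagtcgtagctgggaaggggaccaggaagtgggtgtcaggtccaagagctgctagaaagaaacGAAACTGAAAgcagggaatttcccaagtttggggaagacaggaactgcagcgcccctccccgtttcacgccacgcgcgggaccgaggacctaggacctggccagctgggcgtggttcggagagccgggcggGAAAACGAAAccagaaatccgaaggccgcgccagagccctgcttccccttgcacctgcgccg

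Antigen presentation genes were raised at 2 class II genes. HLA-DRA, the alpha chain of HLA-DR, had 2.53 and 2.48 CPM in the RuxP libraries, against 0.122 and 0.0775 CPM in the parental libraries (log2 fold change 4.62 ± 0.56 SE, adjusted p = 0.0091), and CIITA, the activator of class II genes, had 3.4 and 5.13 CPM in the RuxP libraries, against 0.766 and 1.09 CPM in the parental libraries (log2 fold change 2.21 ± 0.34 SE, adjusted p = 0.018). These levels are low, and 2 of 11 tested class II genes were called, with a median of 0.93. Of 20 class I pathway genes, PSMB9, an immunoproteasome subunit, was called with 176 and 181 CPM in the RuxP libraries, against 112 and 97.9 CPM in the parental libraries (log2 fold change 0.77 ± 0.15 SE, adjusted p = 0.036). Both counts lie beside the 4.28% of all tested genes that rose. The class II count was 1 without RuxP 1, 1 without RuxP 2, 6 without parental 1 and 5 without parental 2, and the class I count 3 without parental 2 and 6 with GC and length trends removed. With libraries left out singly, the call of HLA-DRA was lost without RuxP 1, the call of CIITA was lost without RuxP 2 and the call of PSMB9 was lost without RuxP 1, RuxP 2, FedP 1 or FedP 2.

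NF-kappaB and TNF response genes gave 3 falls and no rise among 28 tested, beside 2.17% and 4.28% of all tested genes. NFKBIA, a feedback inhibitor of NF-kappaB, had 39.7 and 28.9 CPM in the RuxP libraries, against 66.7 and 62 CPM in the parental libraries (log2 fold change -0.91 ± 0.19 SE, adjusted p = 0.049). TNFAIP3, another such inhibitor, had 44.6 and 38.7 CPM in the RuxP libraries, against 80.6 and 67.7 CPM in the parental libraries (log2 fold change -0.83 ± 0.17 SE, adjusted p = 0.041). CXCL3, a neutrophil chemokine, had 1.09 and 1.68 CPM in the RuxP libraries, against 6.32 and 4.86 CPM in the parental libraries (log2 fold change -2.01 ± 0.34 SE, adjusted p = 0.026). These falls were near the threshold. The call of CXCL3 was lost without RuxP 1 or RuxP 2, the call of TNFAIP3 was lost without RuxP 1, RuxP 2, FedP 1 or FedP 2 and the call of NFKBIA was lost without RuxP 1, RuxP 2, parental 1, FedP 1 or FedP 2. These falls numbered 0 without RuxP 1, 0 without RuxP 2, 10 without parental 2, 1 without FedP 1 and 1 without FedP 2, and the calls with GC and length trends removed were 2 higher and 10 lower. IL6, TNF and CXCL8 were too low to test.

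Receptor tyrosine kinase genes were called in 3 of 36 cases, KIT upward and the others downward, a share of 8.33% near the 6.44% of all tested genes. IGF1R, the receptor for insulin-like growth factor 1, had 179 and 219 CPM in the RuxP libraries, against 516 and 392 CPM in the parental libraries (log2 fold change -1.19 ± 0.20 SE, adjusted p = 0.023), and LTK, the leukocyte tyrosine kinase, had 9.72 and 15.1 CPM in the RuxP libraries, against 53.1 and 28.7 CPM in the parental libraries (log2 fold change -1.72 ± 0.35 SE, adjusted p = 0.042). Both calls were lost without RuxP 1 or RuxP 2, the falls numbered 5 without parental 2, and the single rise became 4 without parental 1 and 4 without parental 2. The calls with GC and length trends removed were 6 higher and 7 lower. FLT3, a receptor of early progenitors named after its values were seen, had 28 and 12 counts in the RuxP libraries, against 0 and 0 in the parental libraries, and was not called (0.12 for the adjusted p). Of the 14 drug efflux transporter genes ABCC3 was called, as a fall to 17.9 and 15.4 CPM in RuxP, against 216 and 129 CPM in parental cells (log2 fold change -3.37 ± 0.29 SE, adjusted p = 0.0044), which was lost without RuxP 1. That share of 7.14% is near the 6.44% of all tested genes, and the falls numbered 0 without RuxP 1, 2 without parental 1 and 4 without parental 2, and 6 with GC and length trends removed. ABCB1, the P-glycoprotein gene named after its values were seen, had 91.8 and 92.5 CPM in the RuxP libraries, against 115 and 147 CPM in the parental libraries and was not called (log2 fold change -0.51 ± 0.17 SE, adjusted p = 0.14).

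Adhesion genes fell in 8 and rose in 3 of 43 tested, beside 2.17% and 4.28% of all tested genes. PECAM1, an adhesion receptor of platelets and endothelium, had 205 and 207 CPM in the RuxP libraries, against 702 and 708 CPM in the parental libraries (log2 fold change -1.78 ± 0.14 SE, adjusted p = 0.0041). ITGA9, an integrin chain, had 17.6 and 18.7 CPM in the RuxP libraries, against 67 and 56.7 CPM in the parental libraries (log2 fold change -1.77 ± 0.17 SE, adjusted p = 0.0048). The replicates of PECAM1 agreed closely in both groups. The count of 8 was 3 without RuxP 1, 5 without RuxP 2 and 15 without parental 2. The call of ITGA9 was lost without RuxP 1. The 3 rises numbered 0 without RuxP 1, 5 without parental 2, 1 without FedP 1 and 1 without FedP 2, and the calls with GC and length trends removed were 8 higher and 17 lower.

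Counts in metabolic and stress lists moved with the setting. Of 32 ATF4 response genes 4 rose, beside 4.28% of all tested genes, led by ALDH1L2, a mitochondrial folate enzyme with 9.88 and 9.67 CPM in the RuxP libraries, against 1.76 and 1.71 CPM in the parental libraries (adjusted p = 0.0038), and ASNS, asparagine synthetase, with 84.1 and 99.4 CPM in the RuxP libraries, against 37.4 and 38.2 CPM in the parental libraries (log2 fold change 1.28 ± 0.16 SE, adjusted p = 0.0092). Of 29 genes listed under cholesterol synthesis 3 rose, none past 2-fold: ACAT2 by 0.92 ± 0.17 SE, MSMO1 by 0.75 ± 0.16 SE and FADS1, a fatty acid desaturase gene, by 0.74 ± 0.14 SE. Of 25 p53 target genes 3 fell, beside 2.17% of all tested genes, BTG2, an antiproliferative gene, by -1.12 ± 0.14 SE, FDXR, a mitochondrial reductase gene, by -1.62 ± 0.25 SE and TP53INP1 by -0.89 ± 0.17 SE. MT1X was the 1 of 7 metallothionein genes called, by 2.18 ± 0.44 SE. When single libraries were dropped, the calls of ASNS and FDXR were lost without RuxP 1 or RuxP 2, the call of BTG2 was lost without RuxP 1, RuxP 2 or FedP 2 and the calls of TP53INP1, ACAT2, FADS1, MSMO1 and MT1X were lost without RuxP 1, RuxP 2, FedP 1 or FedP 2. The ATF4 count was 1 without RuxP 1, 1 without RuxP 2, 9 without parental 1, 9 without parental 2, 2 without FedP 1 and 2 without FedP 2. The cholesterol count was 0 without RuxP 1, 0 without RuxP 2, 5 without parental 1, 10 without parental 2, 0 without FedP 1 and 0 without FedP 2. The p53 count was 0 without RuxP 1, 0 without RuxP 2, 9 without parental 2 and 1 without FedP 2, and the metallothionein count was 0 without RuxP 1, 0 without RuxP 2, 3 without parental 1, 2 without parental 2, 0 without FedP 1 and 0 without FedP 2. The GC and length trends once removed, 14 ATF4 genes, 8 cholesterol genes and 3 metallothionein genes were called higher, and of the p53 targets 4 were higher and 5 lower.

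A group of 5 lists held no called gene in RuxP against parental cells with edgeR. Of 23 heat shock genes 1 was higher at an unadjusted p under 0.05, with 0 called by DESeq2 or limma-voom. Of 21 endoplasmic reticulum stress genes 2 were higher and 1 lower at that level, with 1 lower by DESeq2 and 0 by limma-voom. Of 22 NRF2 targets 1 was higher and 3 lower, with 1 higher and 2 lower by DESeq2 and 0 by limma-voom. Of 13 S100 genes 1 was higher, with 0 by DESeq2 or limma-voom. Of 13 mitochondrially encoded genes 0 had an unadjusted p under 0.05, with 0 by DESeq2 or limma-voom. The calls with GC and length trends removed were 1 higher and 0 lower for heat shock, 2 higher and 1 lower for endoplasmic reticulum stress, 2 higher and 3 lower for NRF2, 0 higher and 0 lower for S100 and 2 higher and 0 lower for mitochondrially encoded genes. HSPA8, the constitutive heat shock chaperone, was however higher in RuxP than in FedP cells, with 1866 and 1767 CPM in RuxP, 810.2 and 816 CPM in FedP, and 1590.4 and 1852 CPM in parental cells (RuxP minus FedP 1.16 ± 0.14 SE, adjusted p = 0.027), and it was not called against parental cells (0.77 for the adjusted p).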

How the data were processed

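HEL cells were grown in RPMI medium with serum, total RNA was extracted on RNeasy columns with DNase and libraries were sequenced on a NovaSeq, per the labels' protocols. Per the submitters' processing notes, bcl2fastq, STAR 2.5.1a, the GRCh38 build and edgeR were used. The authors deposited whole-number counts per gene, which the labels call raw, in 3 tables, and the table of the persistent and parental lines was used here. The other 2 tables, of drug-treated cells, were not used here. The counting program, its strand setting, the annotation release and the library kit are not stated in the labels, and an antisense partner's reads may therefore be counted for a gene. Among counts of 1 to 20, 59.8 to 73.07% per library were even, so read mates may have been counted separately.

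The table held 34343 lines, of which 130 repeated a gene identifier and were dropped, leaving 34213 genes. Totals were 51799814 and 59199791 counts in RuxP, 79755715 and 77435214 in FedP, and 59204428 and 54801993 in parental libraries. The 6 libraries were assigned to groups by title and column heading. In R 4.3.3, edgeR 4.0.16 filtered genes with filterByExpr by group, scaled libraries with TMM and fitted 1 quasi-likelihood model without a replicate block (BCV 26.9%, 3 residual degrees of freedom), and 15924 genes were tested. Contrasts were RuxP minus parental and RuxP minus FedP, two-sided, with Benjamini-Hochberg adjusted p under 0.05 called. Each SE was taken as the size of the log2 fold change divided by the square root of F. The code was tested on simulated data. The floor of 3 counts and all CPM cover counting error only.

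The groups compared, the gene lists and the motifs were chosen with earlier results of these data known, and the mast cell and basophil list and the CHR and E2F motifs were added after these counts were examined. No set test was run: lists are given by counts and medians. Genes named are 8 tested genes of JAK2 signalling and its outputs, the 15 largest rises and falls among called genes whose mean reached 4 CPM, with no overlap of the groups, up to 4 called members of each list by smallest p, and for lists without a call up to 3 members. Others are marked as chosen after their values were seen, or belong to the 15 markers of HEL cells. A few genes that the rule picked are counted in their lists but not reported here by name. GC content, length and gene positions are from GENCODE 29, for 99.96% of tested genes, and promoters from RefSeq on GRCh38.p14.

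Alternatives were DESeq2 size factors, no filter, a mean of at least 4 CPM, DESeq2 1.42.0, limma-voom (limma 3.58.1), a fit of the 4 libraries compared, a block on replicate number (replicate block), leaving out each library (a group then left with 1 library was assumed to vary like the others), RuxP 1 and parental 2 left out together, and, added after the data were seen, removal of GC and length trends by lowess (span 0.3) and a crossed pairing. Wherever libraries were left out, the low-count filter was run again, except with GC and length trends removed as well. Those counts therefore cover other sets of genes than the main fit.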

Additional observations from a re-analysis of the deposited data

Results flagged for a closer look

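These genes were singled out because the difference between RuxP and FedP cells passed the edgeR test (adjusted p under 0.05), so that the fold changes of the persistent lines over parental cells differ for them. They are those of the named genes that did, and both RuxP libraries lay on one side of both FedP libraries in each.

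CD24 was higher in RuxP than in FedP cells by 2.87 on the log2 scale (adjusted p = 0.018), with 38.8 and 38.3 CPM in RuxP, 5.26 and 5.26 CPM in FedP, and 0.383 and 0.388 CPM in parental cells. CPA3 was higher by 2.14 and HPGDS by 1.82 (adjusted p = 0.018 and 0.027). ERG was higher by 1.79 (adjusted p = 0.036). ALOX5 had a RuxP minus FedP log2 fold change of -1.33 (adjusted p = 0.04).

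The division genes MKI67, KIF11, KIF2C and PTTG1 were higher in RuxP than in FedP cells by 2.60, 2.33, 1.46 and 1.10, and the replication genes CDC45, GINS1, CDC6 and MCM4 by 2.32, 1.90, 1.83 and 1.77. HSPA8, the constitutive HSP70 chaperone, was higher by 1.16 (adjusted p = 0.027). Its FedP libraries, at 810.2 and 816 CPM, lay below parental cells at 1590.4 and 1852 CPM, while RuxP had 1866 and 1767 CPM. All these calls belong to a count that was 0 when either RuxP or either FedP library was left out, so each rests on both RuxP and both FedP libraries.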

How the results depend on the processing

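The 1026 genes called between RuxP and parental cells became 1836 without the low-count filter, 2469 with DESeq2 (1258 higher, 1211 lower), 419 with only the 4 libraries compared and 9777 without RuxP 1 and parental 2 together, where the spread came from the FedP pair alone. Size factors, the 4 CPM filter and limma-voom gave 1048, 997 and 1045. With 1 library left out the count ran from 170 to 4157. Settings added after the data were seen gave 3381 with GC and length trends removed (1800 higher, 1581 lower, where 681 and 345 were called with them), 2424 with a replicate block as well and 8430 without RuxP 1 and parental 2 as well.

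The 222 genes called between RuxP and FedP cells became 2886 without the filter, 3680 with DESeq2, 445 with limma-voom, 5783 with only those 4 libraries, 9913 without RuxP 1 and parental 2, and 2243 with GC and length trends removed. With 1 library left out the count ran from 0 to 5672.

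Deviations of same-numbered libraries were correlated over 10459 genes. The values were -0.685 between RuxP and parental, -0.277 between RuxP and FedP and 0.342 between FedP and parental cells. In RuxP and parental cells the replicate differences followed GC content in opposite directions. The correlations therefore cannot decide whether replicate numbers pair the samples. The replicate block gave 324 and 0 genes in the RuxP against parental and RuxP against FedP comparisons. In RuxP against FedP cells 3597 genes had an unadjusted p under 0.05 there. The crossed pairing of RuxP 1 with parental 2 called 3848. Under the block 20 mitosis, 18 replication and 7 platelet genes were called in the same direction.

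In the settings run gene by gene, the 125 genes that the naming rule picked were compared with the main fit, and the 4 CPM filter held 107 of them. None changed direction where it was called in either fit. Changes of direction in genes called in neither fit were not counted. EGR1, for example, went from -0.07 to 0.09 on the log2 scale with GC and length trends removed. The crossed pairing and both combined GC settings were run for the total count and for the counts of list members, and not gene by gene. Calls lost numbered 49 without RuxP 1, 36 without RuxP 2, 35 under the block, 26 with only 4 libraries, 19 and 18 without a FedP library, and at most 3 in the others, and 0 with GC and length trends removed, where 6 more genes were called. Depth limits genes near 3 counts, and with 2 libraries a group the spread limits all calls.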
